A study of Mus musculus with 3 samples.

Results

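The transcripts described here encode the translation initiation factors of the mouse blastocyst, the embryo of the stage just before implantation. Members were the array probes whose RefSeq messenger accession belongs to a gene with a symbol starting in Eif1 to Eif6, and the 4 Eif2ak genes, which encode kinases that act on the factors, were left out. This gave 77 probes for 52 genes, out of 20030 genes named in the same way. The conditions compared were 3, each measured on 1 array from a pool of 30 blastocysts of the ICR strain. For the young group the mothers were 3 to 6 weeks old, and for the aging group 43 to 53 weeks old. Suppressed aging blastocysts also came from the older females and were cultured with 10 μg/ml of an antibody that neutralizes CXCL5, a secreted chemokine, together with a 10 nM antagonist of its receptor CXCR2. By the labels, all females were superovulated and mated, zygotes were flushed from the oviducts, and all embryos grew for 96 h in drops of KSOM medium, so every group is a model of embryos grown in culture and not in the tract. No condition was replicated, so no test was possible, and every value below describes a single pool.

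Initiation is the step at which a ribosome is placed on the start codon of a messenger RNA. In brief, eIF2 carries the initiator tRNA to the small ribosomal subunit, eIF1, eIF1A and eIF3 hold that subunit in a state fit for scanning, and the eIF4 factors bind the cap of the messenger and unwind its leader. After the start codon is found, eIF5 and eIF5B lead to the release of eIF2 and the joining of the large subunit. Supply of these factors and their control by phosphorylation set how much protein a cell makes, and the cleavage-stage embryo depends on translation of stored maternal messengers before its own genome is active.

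A level is given here as the log2 intensity of a probe minus the 75th percentile of the intensities on its array, and a difference is one level minus another, so that a difference of 1 is 2-fold. The brightest probe stands for a gene with several. Levels of different probes depend on the probe as well as the transcript and are not set against each other. The 75th percentile itself lay between 122.3 and 154.5 intensity units, and no member spot was saturated or marked as an outlier. Spots of 300 probes that each array carries 10 times had a median SD of 0.05 on every array (0.0533, 0.0500 and 0.0453 in young, aging and suppressed aging), and the member probe spotted 10 times, for Eif3h, had SDs of 0.09, 0.06 and 0.06. This covers hybridization within an array and says nothing of the spread between pools or embryos. In a pool, fewer cells of a type and less RNA per cell cannot be told apart.

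Markers of the blastocyst were present in all pools. All 7 trophectoderm markers, 6 inner cell mass markers and 4 primitive endoderm markers were well above background on all arrays. At their brightest probes the inner cell mass markers moved together. In aging 6 of 6 were higher than in young (median difference 0.72). In suppressed aging 6 of 6 were lower than in aging (median -0.24). Trophectoderm markers leaned the other way at their brightest probes. In aging 5 of 7 were lower than in young (median -0.19), with Tfap2c at -1.16, while Elf5 was higher by 0.91. At its other probe Tfap2c differed by 0.08. In suppressed aging 6 of 7 were higher than in aging (median 0.21). The primitive endoderm markers were split, with Sox17 at -1.53 and Pdgfra at 1.28 between aging and young. The other Sox17 probe gave 0.33, and the other Pdgfra probe was below background on all arrays. Of 7 cumulus and granulosa markers Foxl2, Amh and Cyp19a1 were above background on all arrays, with Foxl2 at levels of 8.66, 8.54 and 8.77 in young, aging and suppressed aging, while Fshr, Has2, Ptx3 and Tnfaip6 were below background on all. Of the blood markers, Hbb-bt and Ptprc were below background on all arrays, and Alas2 was above it in young and aging only. The part of cell composition in the differences below was not tested.

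Nearly the whole set of initiation factors was detected. On all 3 arrays 51 of the 52 genes (98.1%) were well above background, against 12812 of 20027 named genes with a level (64.0%). The exception was Eif5a2, a paralogue of the hypusine-bearing factor Eif5a, which was above background in young and suppressed aging and not in aging blastocysts. Thus each complex other than the eIF5A pair had all of its measured members present in every pool.

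**Figure D1:**
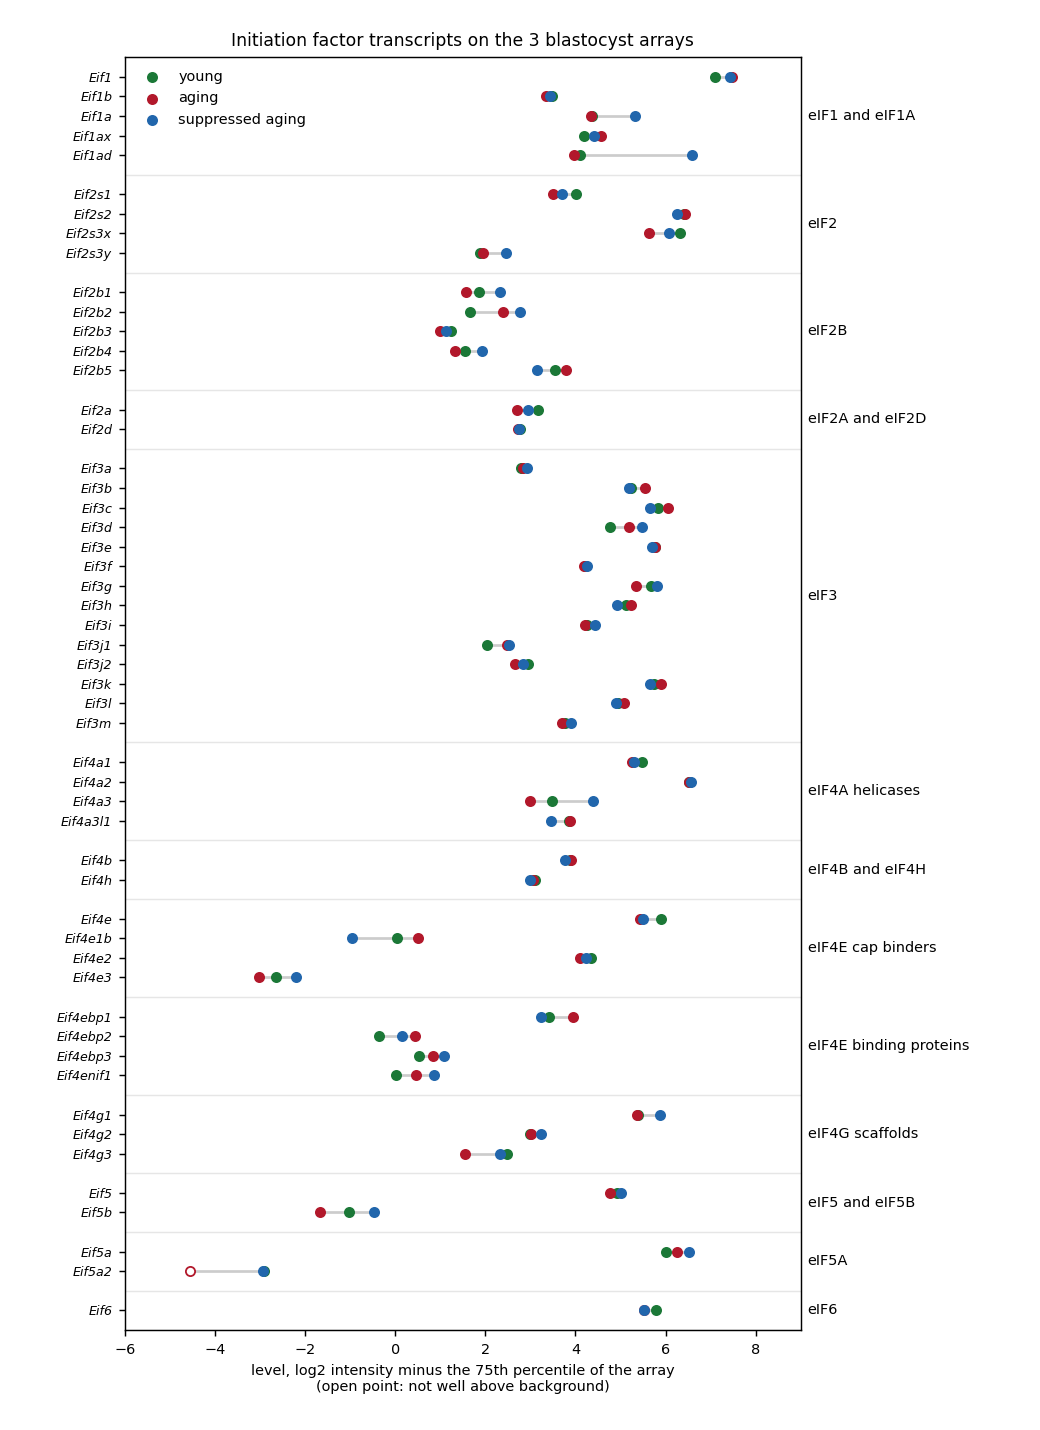
Level of each of the 52 initiation factor genes (log2 intensity minus the 75th percentile of the array) in young, aging and suppressed aging blastocysts, 1 array each, grouped by complex; a grey line joins the lowest and the highest. For most genes the 3 points lie close together, Eif1ad stands out by its suppressed aging point at 6.58, and the open point is Eif5a2 in aging, which was not well above background.

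The first comparison, aging against young, asks how the age of the mother bears on these transcripts in blastocysts. Initiation factors differed little. No factor was over 2-fold higher in aging, where 10.1% of all named genes were, and 1 factor, Eif5a2, was over 2-fold lower, where 9.1% of all genes were. In either direction this is 1 of 52 against 19.2% of all genes. None differed over 5-fold (2.66% of all genes). The median difference over the 51 factors above background on both arrays was -0.01, with 25 higher and 26 lower, and the median over all genes was 0.04. The median size of a difference, whatever its sign, was 0.23 for the factors and 0.40 for all genes.

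The second comparison, suppressed aging against aging, asks what blocking CXCL5 and CXCR2 did in embryos of older females. Here 4 factors were over 2-fold higher (Eif1ad, Eif4a3, Eif5b and Eif5a2), where 8.9% of all genes were, and 1 was over 2-fold lower (Eif4e1b), where 8.65% were. These 5 of 52 compare with 17.6% of all genes in either direction. Eif1ad was the only factor over 5-fold apart (2.4% of all genes). Of 51 factors 34 were higher and 17 were lower. The median difference was 0.12 beside 0.00 over all genes, and the median size was 0.25 beside 0.38. The count of higher factors moves with the scaling of whole arrays: with the authors' processed values, which differ from these by a factor per array, it was 28 higher and 23 lower, while the median over all genes moved to -0.09 and the factors stayed 0.12 above it.

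The third comparison sets suppressed aging against young. Eif1ad and Eif2b2 were over 2-fold higher (8.93% of all genes) and Eif4e1b was over 2-fold lower (7.61%). In either direction 3 of 52 factors were over 2-fold apart, against 16.5% of all genes, and Eif1ad alone was over 5-fold apart (2.43%). As many factors were higher as lower, 26 each, with a median of 0.02 beside 0.05 over all genes and a median size of 0.22 beside 0.36. These 3 comparisons share arrays in pairs and are not independent of each other: a value that stands apart on the aging array enters both comparisons with aging.

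Initiation factors are bright on the array, and bright genes differ less. Among the 3517 named genes with a mean level at or above the lower quartile of the factors (2.32), 5.57% were over 2-fold apart for aging against young, 4.35% for suppressed aging against aging and 5.69% for suppressed aging against young. Of the 39 factors in this range 0, 2 and 1 were. Median sizes in the 3 comparisons were 0.29, 0.25 and 0.23 for the bright genes and 0.16, 0.21 and 0.18 for these 39 factors. Cytosolic ribosomal proteins, the other large group of translation genes, with probes for 84 genes, had median sizes of 0.16, 0.10 and 0.11 and median differences of 0.00, 0.05 and 0.06.

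**Figure D2:**
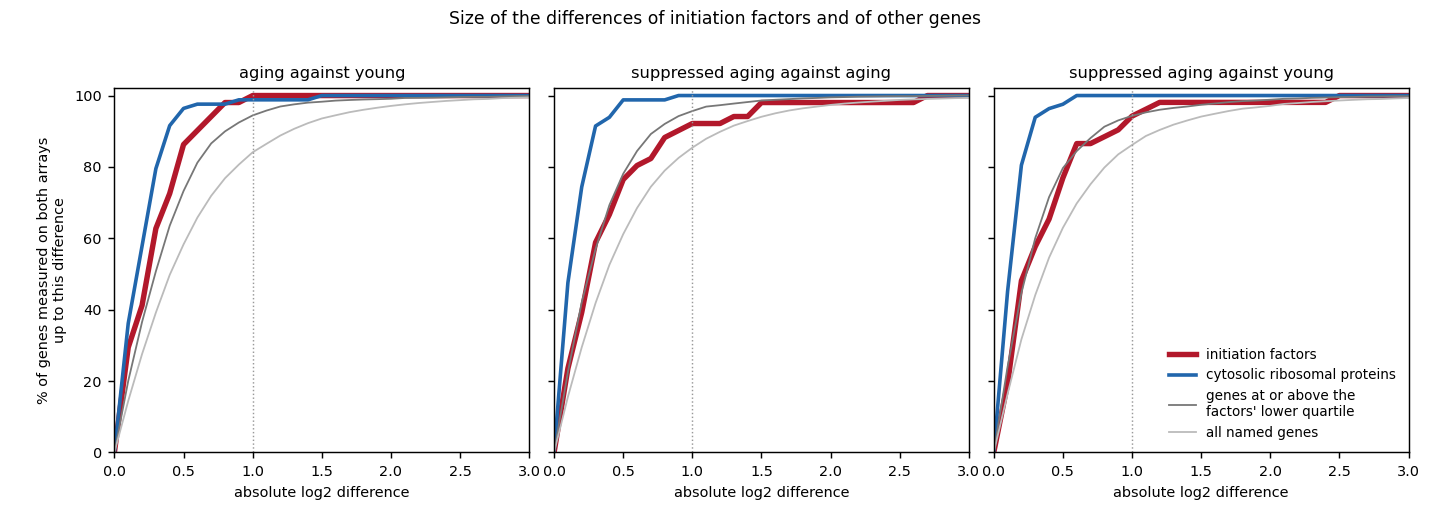
Percent of genes (y axis) whose absolute log2 difference is at most the value on the x axis, for initiation factors, cytosolic ribosomal proteins, genes with a mean level at or above the lower quartile of the factors, and all named genes above background on both arrays; the dotted line marks 2-fold. The 51 or 52 factors, 39 of which lie at or above that quartile, run near the genes at or above it (higher on the plot for aging against young). Over most of the range they run above all genes, and below the ribosomal proteins in both comparisons with suppressed aging. For aging against young they run below the ribosomal proteins only at smaller differences, and at 1.0 they reach 100% beside 98.8%. Median sizes were 0.23, 0.25 and 0.22 for the factors and 0.16, 0.10 and 0.11 for the ribosomal proteins.

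The genes grouped by name with eIF1 and eIF1A, the factors that hold the small subunit fit for scanning, included Eif1ad, the member with the largest difference measured. Eif1, which guards start codon choice, had levels of 7.10, 7.47 and 7.43 in young, aging and suppressed aging, and its other probe differed likewise (0.45 against 0.37 at the brighter probe for aging against young). Its paralogue Eif1b had levels of 3.48, 3.34 and 3.44. Eif1ax, the X-linked eIF1A, stood at 4.18, 4.56 and 4.41. At the brightest probes none of these 3 genes differed by more than 0.38 in size between any arrays.

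Eif1ad, whose product holds an eIF1A-like domain, had levels of 4.09 in young, 3.98 in aging and 6.58 in suppressed aging. It was thus 6.07-fold higher in suppressed aging than in aging (difference 2.60) and 5.61-fold higher than in young (2.49), while young and aging differed by -0.11. Eif1a came next in this group with levels of 4.37, 4.35 and 5.33, just under 2-fold higher in suppressed aging than in aging (0.98). Each of these genes has 1 probe, so no other reading on the array bears on them.

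The eIF2 complex, which brings the initiator tRNA, and its exchange factor eIF2B, which recharges it with GTP, are the point at which stress kinases slow initiation. Eif2s1, the subunit those kinases phosphorylate, had levels of 4.02, 3.50 and 3.69, lower in aging than in young by 0.51 in size. Of the 4 eIF2 genes 3 were higher in suppressed aging than in aging, with a median of 0.32 beside 0.00 over all genes. The count of 3 was the same under all 7 other settings that were run. Eif2s2 was the exception at -0.18.

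The gamma subunit of eIF2 is encoded on both sex chromosomes of the mouse. Eif2s3x, on X, had levels of 6.32, 5.62 and 6.08, and Eif2s3y, on Y, had levels of 1.88, 1.94 and 2.45. Between aging and young Eif2s3x differed by -0.70 at its brighter and -0.17 at its other probe, and Eif2s3y by 0.06 and -0.08. In suppressed aging against aging both probes of both genes were higher, by 0.45 and 0.36 for Eif2s3x and by 0.51 and 0.22 for Eif2s3y. The sex of the embryos is not given. Other Y-linked genes did not move as one: for suppressed aging against aging Ddx3y differed by -0.02, Kdm5d by 0.13 and Uty by -0.30. Another Kdm5d probe, brighter than this one in young and aging, was below background in suppressed aging, a difference of at most -2.10. A further Kdm5d probe was below background on all arrays. The part of the sex ratio of the pools was not tested.

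Of the 5 eIF2B genes 4 were higher in suppressed aging than in aging under each setting run. The median of the 5 was 0.37, beside 0.00 over all genes, of which 6569 of 13136 were higher. Eif2b2, the beta subunit, had levels of 1.66, 2.39 and 2.76 and was 2.15-fold higher in suppressed aging than in young (1.11), with aging in between. Eif2b5, the catalytic epsilon subunit, ran the other way, with levels of 3.56, 3.80 and 3.15 and a difference of -0.64 between suppressed aging and aging. So the subunits of this complex did not share 1 pattern. Eif2b3 in addition had probes that disagreed in sign, at -0.23, 0.40 and 0.28 between aging and young. For suppressed aging against aging they gave 0.12, -0.37 and 0.52, so its place among the 4 higher genes varied with the probe. The tRNA carriers outside the eIF2 pathway, Eif2a and Eif2d, differed by at most 0.48 in size at their brighter probes.

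The scaffold complex eIF3, the largest of the factors, differed little. Its 14 genes had medians of 0.07, 0.06 and 0.01 in the 3 comparisons, and the widest difference was 0.71, for Eif3d in suppressed aging against young. Eif3a, its central subunit, had levels of 2.80, 2.83 and 2.92. The near-identical pair Eif3j1 and Eif3j2 differed by 0.43 and -0.29 between aging and young, with levels of 2.04, 2.47 and 2.52 for Eif3j1 and of 2.96, 2.67 and 2.83 for Eif3j2, and whether their probes tell the copies apart was not tested. In suppressed aging against aging 8 of 14 were higher, and the median, near 0, was -0.09 after normexp background correction, where the median over all genes was 0.02. It was -0.01 under quantile normalization and -0.03 with the authors' values, where the median over all genes was itself lower, at -0.03 and -0.09. Eif3h, the gene with the most spots, agreed between its probes, at -0.30 and -0.35 for suppressed aging against aging.

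Many messengers of the translation machinery start with a terminal oligopyrimidine tract, a C at the first transcribed base followed by a run of C or T, through which mTOR controls their translation. Windows around the annotated start from RefSeq (build GRCm38.p6) were at hand for 40 of the 52 genes, with 52 starts. A C at the start base followed by at least 4 bases that are C or T, read on the transcribed strand only, was found at 2 of these starts (3.85%), those of Eif2s3x and Eif3f, against 2.51% of 32851 starts of all genes and 18.4% of 76 starts of cytosolic ribosomal proteins. Wider readings, tried with the results known, gave 17.3% of factor starts, 11.5% of all and 35.5% of ribosomal protein starts for the same tract beginning up to 3 bases away, and 23.1%, 19.7% and 46.1% for 8 such bases in a row within 25 bases of the start. The starts of these genes, of Eif2s3y, the Y copy of Eif2s3x, and of Eif1ad, the factor with the widest difference, are shown as 30 bases from 10 before the start. Capitals mark a tract that begins at the annotated start, or otherwise the start base.
Eif2s3x, chrX:94212632-94212661, minus strand: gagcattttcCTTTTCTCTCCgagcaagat
Eif3f, chr7:108934405-108934434, plus strand: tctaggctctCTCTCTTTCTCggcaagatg
Eif2s3y, chrY:1010585-1010614, plus strand: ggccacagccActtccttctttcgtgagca
Eif1ad, chr19:5366803-5366832, plus strand: gctttcgatgGcttttgtttctccagcggc
Eif2s3x and Eif3f each have a tract of 11 bases at the annotated start. In Eif2s3y and Eif1ad the annotated start base is A and G, and a tract begins 1 base after it, so both count under the reading that allows 3 bases, and a start placed 1 base further on would give both a tract. Of the genes with a tract at the start itself, Eif3f differed by at most 0.07 in size in any comparison (levels 4.20, 4.19 and 4.26) and Eif2s3x by up to 0.70. The shares above depend on where the starts were annotated and do not count the messengers that carry a tract. A tract bears on translation, which the arrays did not measure.

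The helicases and the cap binders each held a factor that was over 2-fold apart. Eif4a1, the helicase of the cap complex, had levels of 5.48, 5.26 and 5.29, and Eif4a2, its close paralogue, 6.51, 6.53 and 6.56. Both stayed within 0.23 in size between any arrays. Eif4a3, which works in the exon junction complex left by splicing and not in initiation proper, had levels of 3.48, 2.99 and 4.39 and was 2.64-fold higher in suppressed aging than in aging (1.40). Eif4a3l1, the gene named for its likeness to Eif4a3, differed by -0.41 in the same comparison. Eif4b and Eif4h, which aid the helicase, differed by at most 0.14 in size at their brighter probes.

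Eif4e, the main cap binder, had levels of 5.89, 5.43 and 5.49. At its other, far dimmer probe, suppressed aging was higher than aging by 0.99, against 0.06 at the brighter. Eif4e2, a cap binder tied to repression, had levels of 4.34, 4.11 and 4.23, and Eif4e3 had levels of -2.64, -3.02 and -2.19, so that at their brighter probes Eif4e, Eif4e2 and Eif4e3 were all lower in aging than in young, by 0.46, 0.23 and 0.37 in size.

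Eif4e1b, an eIF4E variant of oocytes and early embryos, ran against them. Its probe of highest mean intensity had levels of 0.05, 0.51 and -0.97. That probe was 2.78-fold lower in suppressed aging than in aging (-1.48) and 2.02-fold lower than in young (-1.02). The rule chose it through its aging value, since another probe was brighter in young (0.43) and in suppressed aging (-0.43). This gene has 5 probes. Of these, 4 were above background on all arrays, and all 4 were lower in suppressed aging than in aging, at -1.48, -0.30, -1.52 and -0.87. Between aging and young the same 4 probes disagreed, at 0.46, -0.55, 0.86 and 1.41. Between suppressed aging and young they gave -1.02, -0.86, -0.66 and 0.55, so 3 of 4 were lower, 1 was over 2-fold lower, and the mean was -0.50.

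Transcripts of the proteins that bind eIF4E and keep it from the cap complex leaned higher in the aging pool than in the young. At their brighter probes all 4 were higher in aging than in young, with a median of 0.50, beside 0.04 over all genes. Eif4ebp1, the best known mTOR target among them, had levels of 3.40, 3.95 and 3.24. Eif4ebp2 had levels of -0.36, 0.43 and 0.15 and the widest difference of the group between aging and young, 0.79 or 1.73-fold, and Eif4ebp3 had levels of 0.52, 0.83 and 1.08. Against aging, Eif4ebp1 was 1.64-fold lower in suppressed aging (-0.71) and Eif4ebp2 differed by -0.28, while Eif4ebp3 and Eif4enif1, the eIF4E transporter, differed by 0.26 and 0.40. None passed 2-fold, and each of the Eif4ebp genes has 1 probe. The probes of Eif4enif1 disagreed between aging and young (0.44 and -0.83), so that with the mean over probes 3 of 4 genes were higher. The rule chose the first of these probes through its aging and suppressed aging values. In young the other was brighter, at a level of 0.44 against 0.02.

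The eIF4G scaffolds join cap binder, helicase and eIF3. All 3 were higher in suppressed aging than in aging at their brightest probes, by 0.49, 0.23 and 0.77 for Eif4g1, Eif4g2 and Eif4g3. Eif4g1 had levels of 5.39, 5.38 and 5.87, Eif4g2, which works without the cap, 2.99, 3.00 and 3.23, and Eif4g3 2.47, 1.56 and 2.33. The other probes did not bear this out in each case. That of Eif4g3 differed by -1.34, those of Eif4g2 by -0.25 and 0.16, and those of Eif4g1 by 0.62 and -0.02. With means over probes 2 of 3 genes were higher. Eif4g1 shows how far probes of a gene can part, since for aging against young its 3 bright probes gave -0.01, -1.35 and -0.34. For suppressed aging against young they gave 0.48, -0.73 and -0.36, and in young the second was brighter than the first, at 6.09.

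**Figure D3:**
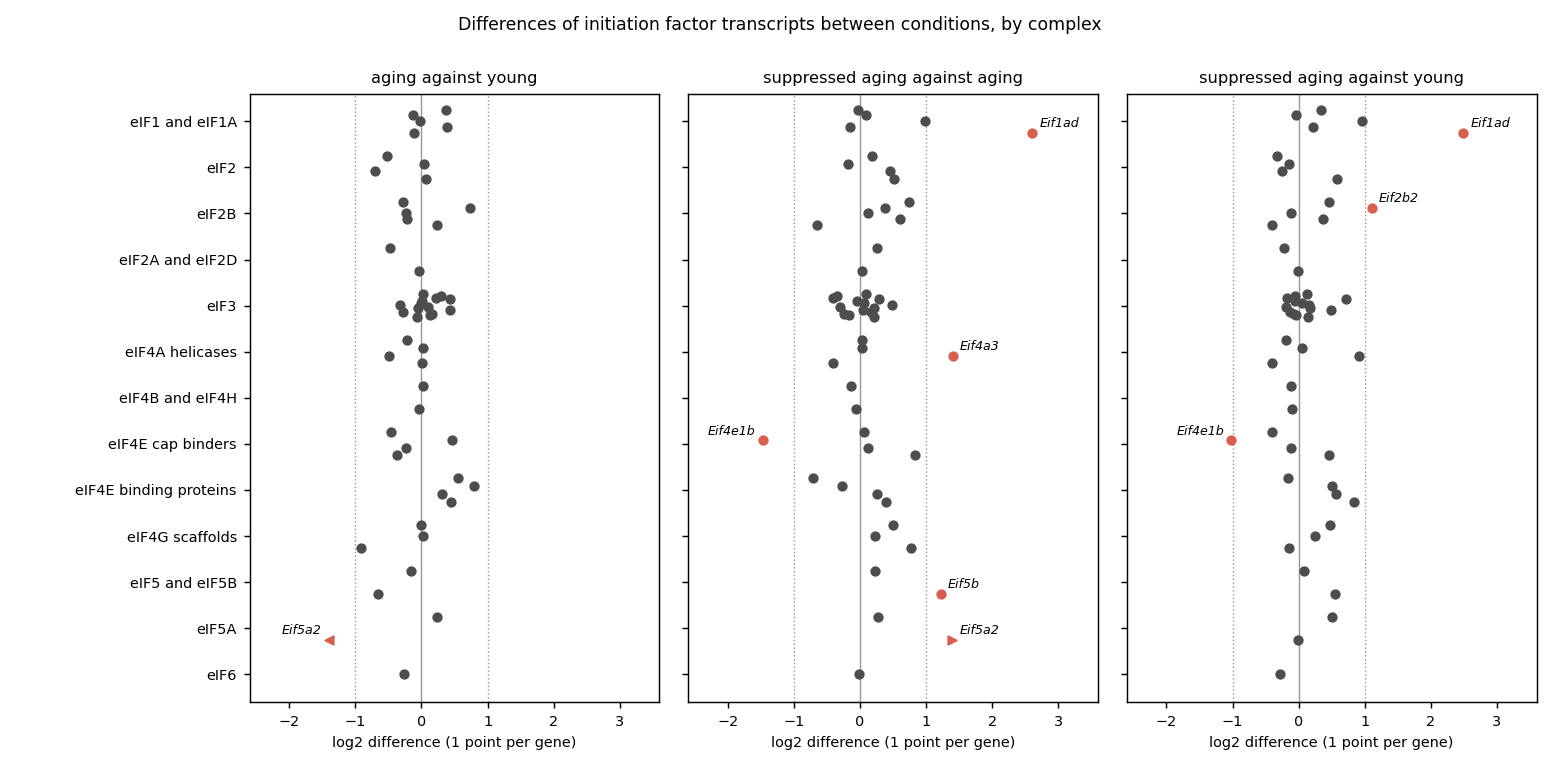
Log2 difference of each initiation factor gene (1 point per gene, x axis) by complex (y axis) for the 3 comparisons, with 0 as a line and 2-fold as dotted lines; red points are over 2-fold and named, and triangles are bounds for Eif5a2, which was below background in aging. The named points are few and fall in different complexes, and the eIF3 points stay within 0.72 of 0.

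Factors of subunit joining and beyond closed the list. Eif5, which makes eIF2 hydrolyse GTP, had levels of 4.93 in young and 4.77 in aging, and suppressed aging was higher than aging by 0.23. Eif5b, the GTPase that joins the large subunit, had levels of -1.01, -1.68 and -0.46 and was 2.33-fold higher in suppressed aging than in aging (1.22), or by 0.74 after normexp background correction, under 2-fold. Both were lower in aging than in young and higher in suppressed aging than in aging under every setting run. Eif6, which keeps the large subunit free, had levels of 5.79, 5.52 and 5.51.

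Eif5a, which acts in elongation and carries hypusine, had levels of 6.01, 6.25 and 6.52, and both of its probes were higher in aging than in young (0.24 and 0.44). Eif5a2 read -2.92 in young and -2.93 in suppressed aging. In aging its signal was not well above background, which puts it at least 2.65-fold below young and suppressed aging at least 2.63-fold above aging, where the bound takes the lowest signal called above background on the aging array. After normexp correction with an added offset of 50, above the intensity of this probe on every array (6.53 to 19.2), these bounds were -0.28 and 0.49, under 2-fold.

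Several probes of a gene on the same array are a further reading of it, not a replicate. Of the 18 factors with more than 1 probe, all probes above background pointed the same way in 8 for aging against young, in 11 for suppressed aging against aging and in 9 for suppressed aging against young. The median range between the probes of a gene was 0.42, 0.40 and 0.43, larger than the median size of a difference (0.23, 0.25 and 0.22). Differences of this size at 1 probe are therefore within the spread between probes. Of the factors over 2-fold apart, Eif1ad, Eif4a3, Eif5b, Eif5a2 and Eif2b2 have 1 probe each, and Eif4e1b has more.

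**Figure D4:**
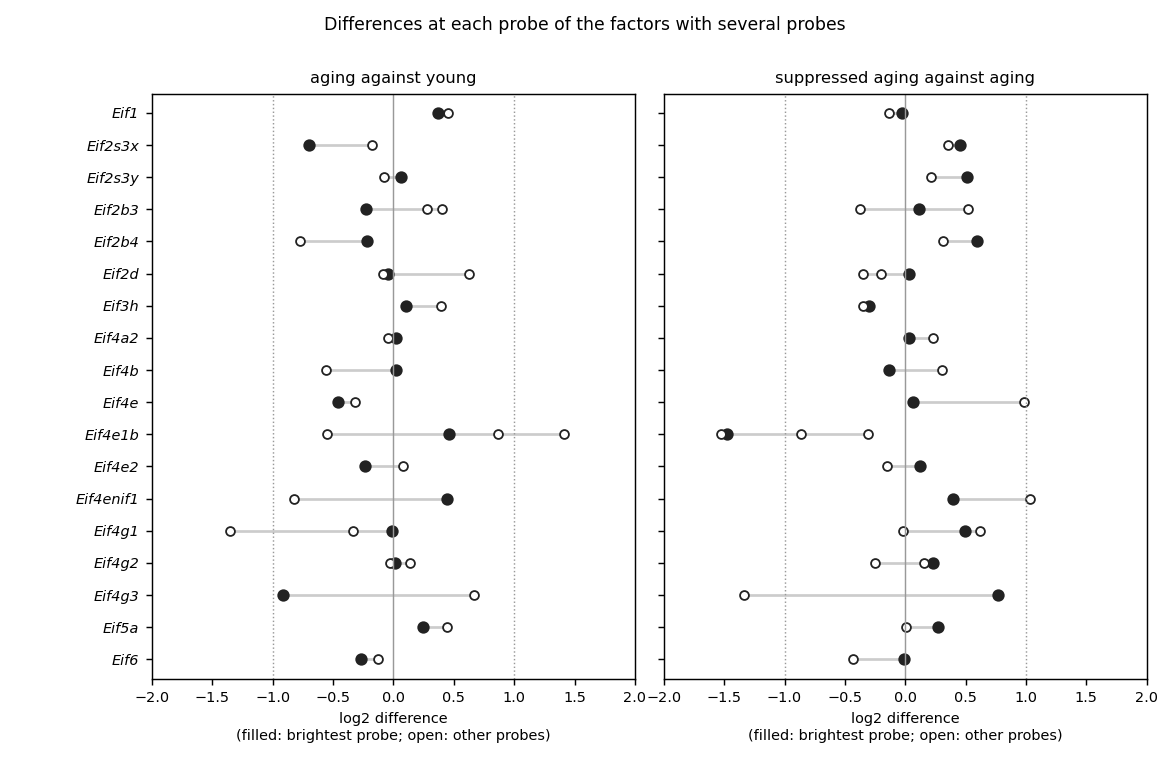
Log2 difference at each probe (x axis) of the 18 initiation factors with more than 1 probe (y axis), for aging against young and suppressed aging against aging; filled points are the brightest probes, open points the other probes above background on both arrays, and grey lines join the probes of a gene. The 4 probes of Eif4e1b all lie below 0 for suppressed aging against aging, while those of Eif4g3 and Eif4enif1 lie on both sides of 0 for aging against young.

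Genes that control the factors were followed in the same way. For aging against young 1 of 7 genes of eIF2 phosphorylation and 1 of 8 of mTOR and MNK input were over 2-fold apart. Both shares were below that of all genes. For each comparison with suppressed aging 2 of 7 and 2 of 8 were over 2-fold apart. Here both shares were above that of all genes, on few genes. Among the 7 genes of eIF2 phosphorylation, Eif2ak3, the kinase of endoplasmic reticulum stress, had levels of -2.38, 0.35 and -1.80, so aging was higher than young by 2.74 and suppressed aging lower than aging by 2.15 in size. Its other probe, which was the brighter in young, pointed the same way by far less, at 0.35 and -0.62, so the rule that takes the highest mean intensity chose this probe through its aging value. Atf4, the transcription factor translated when eIF2 is phosphorylated, had levels of 6.63, 6.62 and 7.84 and was higher in suppressed aging by 1.22 than in aging and by 1.21 than in young, against 0.04 and 0.25 at its other probe. Eif2ak2, the kinase of double-stranded RNA, had levels of 0.58, -0.35 and -0.64, with suppressed aging lower than young by 1.21 in size. The other 4 genes of the list, Eif2ak1, Eif2ak4, Ppp1r15a and Ppp1r15b, differed by less than 2-fold in each comparison.

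Among the 8 genes of mTOR and MNK input to the cap complex, Rps6kb1, a ribosomal S6 kinase, had levels of 0.15, 0.45 and 3.99 at the probe of highest mean intensity, and suppressed aging was higher than aging by 3.54. That probe was the brighter one through its suppressed aging value, since in young the other was brighter. The other Rps6kb1 probe read 1.55, 0.15 and 1.01, a difference of 0.86 from aging, and of -0.54 from young where the first gave 3.84. Mknk1, a kinase of eIF4E, disagreed in sign, with -1.30 and 1.87 at its 2 probes for suppressed aging against aging and levels of 0.18, 0.06 and -1.24 at the brighter. Larp1, which represses messengers with a pyrimidine tract, had levels of 4.72, 5.76 and 5.32 and was higher in aging than in young at both probes, by 1.04 and 0.95. The other 5 genes, Mtor and Rptor among them, stayed under 2-fold.

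Of 12 genes of poly(A) binding, scanning and hypusine formation, Dhps, the first enzyme of hypusine formation on eIF5A, was over 2-fold apart, with levels of 4.70, 5.20 and 5.74 and a difference of 1.03 between suppressed aging and young, against 0.03 at its other probe. The other 11 stayed under 2-fold in each comparison at their brightest probes. This 1 of 12 (8.33%) in suppressed aging against young compares with 16.5% of all genes. The other Paip2b probe, below background in aging, was higher in suppressed aging than in aging by at least 1.10. None of the 7 elongation factor genes above background was over 2-fold apart at its brightest probe. Their medians were 0.03, 0.10 and 0.11, and Eef1a2 was below background on all arrays. Of the Eef2k probes, the brightest gave 0.75 between suppressed aging and young and the second 0.00. The third gave -1.20. The fourth, below background in suppressed aging, gave at most -1.09 against young and at most -1.82 against aging. None of the 3 release factor genes passed 2-fold, Gspt2 being the widest at 0.86 between suppressed aging and young. Over all genes 19.2%, 17.6% and 16.5% passed 2-fold in the 3 comparisons, so lists of 7 and 3 genes with none say little.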

How the data were processed

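RNA of 3 pools of 30 blastocysts was read on 1 slide of 1-colour Agilent mouse expression arrays, 1 array per condition. The deposited scanner files hold processed signal intensity per spot, background-subtracted by the authors with Agilent Feature Extraction 12.0.3.1 (the submitters' processing notes). The study's methods describe global PCR amplification of the RNA, while the labels name a linear cRNA kit, and either can change relative levels of transcripts. A second deposited table of the authors holds the same intensities times a factor per array, 3.46, 3.34 and 3.96.

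From the deposited intensities log2 levels were computed as the mean of a probe's spots not marked as outliers, minus the 75th percentile of the array (Python 3.11.15, pandas 2.3.3). A gene took the probe of highest mean intensity. A probe was above background where over 0.5 of its spots were marked so. With 1 of 2 arrays below background, a bound was computed from the lowest signal above background. With 1 array per condition no p-value was computed. The comparison was tested on simulated data. Of 29937 probes with a messenger accession 29686 were named through a RefSeq table of GRCm38.p6, which gave no gene coordinates here because the array was designed on another build.

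Factors over 2-fold apart, those detected on some arrays, core factors and paralogue groups are given with all levels, the others by range. The members and all lists were chosen with earlier results of these data known, and the Y-linked genes, the set of bright genes and the 3 tract definitions were added after the files were seen. Alternatives were normexp background correction (limma 3.58.1, R 4.3.3, offset 50), quantile normalization, centring on detected probes or 15 housekeeping genes, the authors' values, outlier spots kept, means over probes and other filters on dim probes. The number of arrays, not depth, limits the precision.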

Additional observations from a re-analysis of the deposited data

How the results depend on the processing

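No factor over 2-fold apart changed sign, while the medians of the factors against young, close to 0, took either sign. Between aging and young the median was 0.0576 when centred on the housekeeping genes, where the median over all genes also moved, to 0.10. The median between suppressed aging and aging was 0.0568 under quantile normalization and 0.0259 with the authors' values, beside -0.03 and -0.09 over all genes. The count between aging and young fell from 1 to 0 with normexp correction and when only probes above background on both arrays were counted, since its only factor was a bound for Eif5a2. Normexp correction gave 3 higher and 1 lower for suppressed aging against aging, and 3 higher and 0 lower for suppressed aging against young, beside 2 and 1, with Eif1a coming over 2-fold in both (1.04 and 1.06). Of the 9 values over 2-fold, 4 came under 2-fold with normexp correction: Eif5a2 at -0.28 and 0.49, Eif5b at 0.74 and Eif4e1b between suppressed aging and young at -0.69, the last also with the mean over probes, at -0.50. The cause was not tested. Apart from these values, no other setting run on single genes took any of the 9 under 2-fold. No paired analysis was possible because no condition was measured on more than 1 array, which also leaves no replicate to drop.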
